A study of Oryctolagus cuniculus with 17 samples.

Results

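Extracellular proteases of the matrix metalloproteinase (MMP) and ADAMTS families and their tissue inhibitors (TIMPs) were followed in the lungs of preterm rabbits kept in hyperoxia or normoxia. The members were the genes of the raw count table whose human gene name is MMP, ADAMTS, ADAMTSL or TIMP followed by a number, with the entry of the highest total count kept for each symbol. The rule found 39 genes among 13827 listed, of which 14 were MMPs, 18 were ADAMTS proteases, 4 were ADAMTS-like proteins and 3 were TIMPs. A total of 36 members had enough reads to be tested, and MMP8, MMP21 and ADAMTS13 did not.

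The animals were New Zealand White pups taken before term by C-section, on gestational day 28, and reared in incubators with milk replacer, a treatment that all groups shared. Hyperoxia was 95% O2 (HT3, HT5 and HT7, for 3, 5 or 7 days) and normoxia was 21% O2 (NT3, NT5 and NT7), so preterm birth was common to every sample and no term-born lung was included in these comparisons. RNA came from the homogenate of the whole right lung, with 3 samples per group except HT5, which had 2. The labels do not say that the replicates of a group were separate pups or litters, so the p-values measure the spread between these samples. In such bulk samples, fewer cells of a type and less RNA per cell cannot be told apart.

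MMPs are zinc-dependent proteases that cleave collagens, elastin, laminin and many soluble proteins, and most are secreted as inactive proenzymes. ADAMTS proteases carry thrombospondin motifs and cleave proteoglycans, procollagens or von Willebrand factor, while ADAMTS-like proteins keep the thrombospondin motifs but have no protease domain. TIMPs bind the active site of these enzymes, and TIMP3 is held in the matrix and inhibits several ADAMTS proteases as well as MMPs. In the saccular and alveolar lung, these enzymes take part in the remodelling of the matrix around growing airspaces and vessels.

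Library totals, with each locus counted once, lay between 13123731 and 18111086 counts. Levels are given as CPM (the usual per-library scaling of counts) after TMM normalization, and levels of different genes cannot be compared because transcript lengths were not used. Defining markers of lung cells were present in every group, among them those of alveolar type 2 cells, whose summed level was 17600 to 23600 CPM in NT7 and 13700 to 30000 CPM in HT7. Libraries HT3 replicate 2 and HT5 replicate 1 stood apart in skeletal muscle markers, which summed to 473 and 466 CPM against 98.3 to 158 CPM in the other samples. The counts of members by edgeR's test and by overlap on days 3 and 5 are therefore also given without them.

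"Rose" and "fell" refer to an adjusted p under 0.05 in edgeR's quasi-likelihood test with Benjamini-Hochberg adjustment over all 13142 genes tested, in a fit of all 17 samples. Differentially expressed genes (DEGs) had an adjusted p under 0.01 and a log2 fold change (log2FC) above 2 or below -2. All log2FC are hyperoxia over normoxia at the same day and are followed by their standard error (SE).

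The members changed in number with the length of exposure. On day 3, 0 members rose and 0 fell, where 0.517% of all genes tested rose and 0.517% fell. On day 5, 3 members rose and 13 fell, against 15.9% and 15.4% of all genes. On day 7, 8 rose and 17 fell, against 23.7% in each direction over all genes. The 17 that fell were 47.2% of the members tested and the 8 that rose 22.2%, so the share that rose was near the background and the share that fell was above it. The median log2FC of the members was -0.16 on day 3, -0.76 on day 5 and -0.74 on day 7, beside 0, -0.02 and -0.01 for all genes tested.

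The count of 0 on day 3 came with 8 members at an unadjusted p under 0.05, 1 of them higher and 7 lower, where 15.3% of all genes tested passed that threshold. DESeq2's Wald test with Benjamini-Hochberg adjustment called 3 members on day 3, all lower in HT3 (ADAMTS17, ADAMTS2 and ADAMTS7), where it called 1.87% of all genes lower and 1.67% higher. Groups did not overlap on day 3 for 2 members that were higher (MMP9 and TIMP1) and 9 that were lower, against 12.8% and 13.9% of all genes tested. Without HT3 replicate 2, 6 members had an unadjusted p under 0.05 (1 higher and 5 lower, against 12.3% of all genes), and 2 were higher and 14 lower without overlap (against 19.4% and 19.8%). On day 5, 5 of the tested members were higher and 20 lower without overlap, against 26.5% and 29.2%, and without HT5 replicate 1 these counts were 7 and 24, against 37.4% and 40.7%. On day 7, 9 were higher and 18 lower, against 27.3% and 27.2%.

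All 16 members that passed the test on day 5 passed it again on day 7 in the same direction, as did 85.1% of all genes called on day 5. Without HT5 replicate 2, 5 members passed the test on day 5 in place of 16, and the share of all genes that passed fell as well, from 31.3% to 8.65%. Without HT5 replicate 1, the library with skeletal muscle markers, 18 members and 32% of all genes passed. The day 3 count was 0 without HT3 replicate 2. On day 7, between 20 and 24 members passed when any library of HT7 or NT7 was left out, beside 39.5% to 50.4% of all genes.

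**Figure D1:**
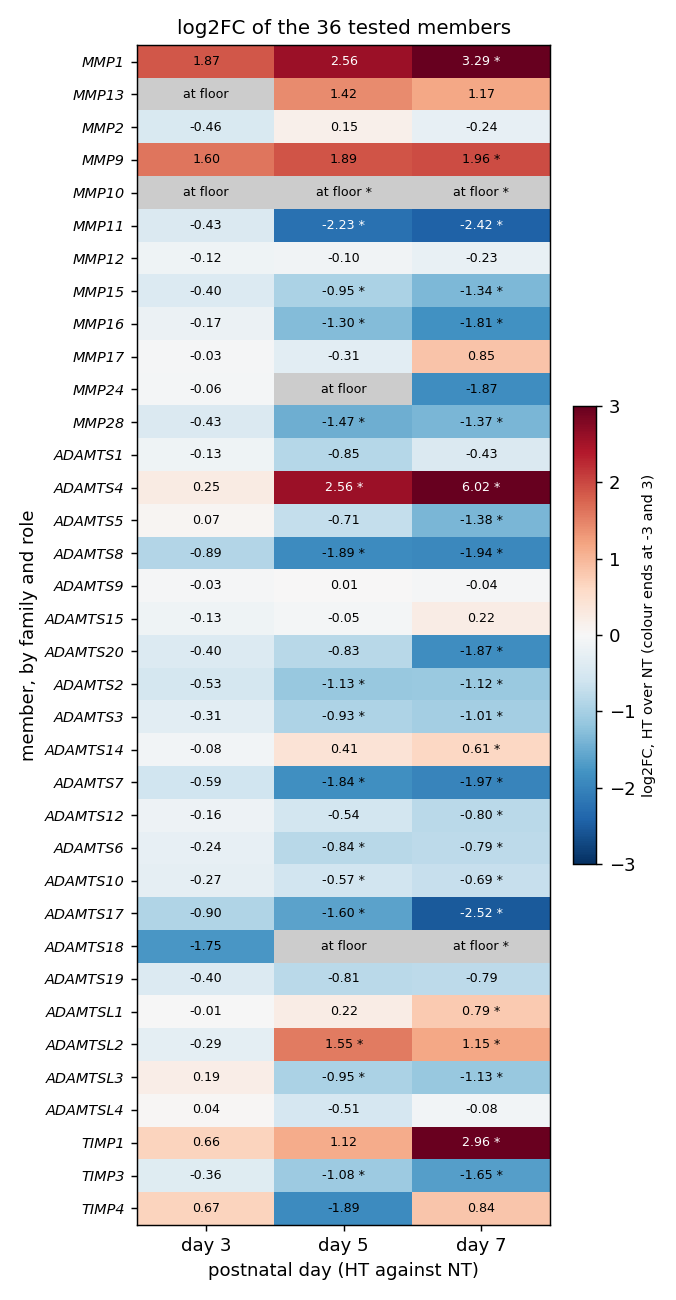
Colour map of the log2FC of the 36 tested members (rows, by family and role) for HT against NT on days 3, 5 and 7 (columns), with an asterisk at adjusted p under 0.05. Grey cells marked as at the floor had a group with 3 or fewer counts in every sample and show no fold change. No cell carries an asterisk on day 3, and 25 carry one on day 7.

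The stromelysin MMP10, which degrades proteoglycans and laminin and can activate procollagenases, had no counts in any of the 9 normoxia samples. The gene (ENSOCUG00000021775) is listed on chromosome 1, 113775354 to 113786608, of OryCun2.0. HT3 held 0, 0 and 3 counts, which is at the floor of 3 counts per library, so no fold change is given for day 3. HT5 held 91 and 398 counts (6.26 and 21.5 CPM). HT7 held 4765, 451 and 6924 counts (275, 27.3 and 355 CPM).

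Each HT5 and HT7 sample thus exceeded every normoxia sample, while the HT7 samples differed among themselves by 13-fold. Against the floor, MMP10 was at least 79-fold higher on day 5 (adjusted p = 0.00587, edgeR's quasi-likelihood test) and at least 1110-fold higher on day 7 (adjusted p = 0.000229). Without HT5 replicate 2 the day 5 bound was 35.6-fold and the call was lost (adjusted p = 0.06), whereas on day 7 MMP10 passed the DEG thresholds with each library left out in turn. A count of 0 in a normoxia library allows up to 3 counts, which is 0.151 to 0.205 CPM, and covers counting error only. How reads common to MMP10 and related stromelysins were assigned is not stated in the sources used here, and MMP3, its close relative, was not analysed here.

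**Figure D2:**
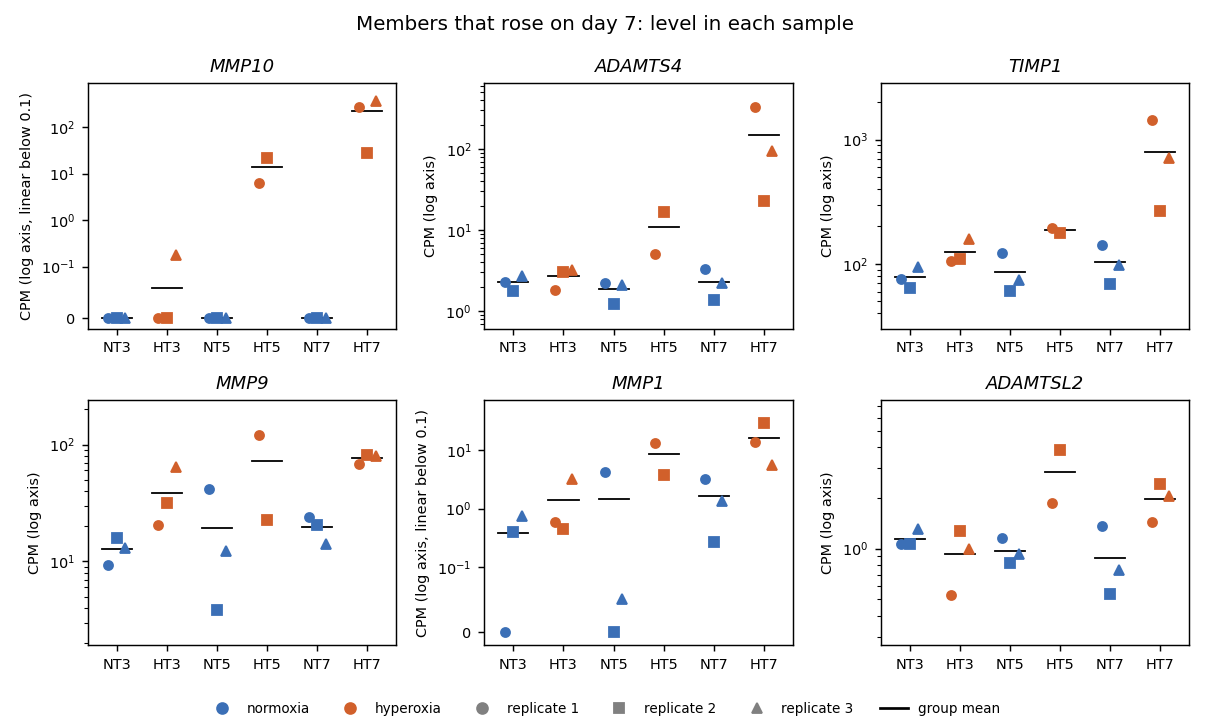
CPM in each of the 17 samples (points, shaped by replicate) and group means (lines) of 6 members that rose on day 7, on log axes that are linear below 0.1 CPM for MMP10 and MMP1. MMP10 lies at 0 in all 9 normoxia samples and between 27.3 and 355 CPM in HT7, and ADAMTS4, TIMP1 and MMP10 spread most within HT7.

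Collagenases cleave the triple helix of fibrillar collagens. The interstitial collagenase MMP1, encoded 18.8 kb from MMP10, had few counts in normoxia, with 0, 8 and 13 in NT3, 70, 0 and 1 in NT5, and 47, 4 and 22 in NT7. Hyperoxia samples held 10, 8 and 55 counts in HT3, 190 and 70 in HT5, and 232, 475 and 106 in HT7. HT7 lay above NT7 without overlap, and HT5 replicate 2 had as many counts as NT5 replicate 1.

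MMP1 rose on day 7 with a log2FC of 3.29 (SE 1.25, adjusted p = 0.0413, edgeR). Leaving out single libraries of HT7 or NT7 ended this call in 4 of 6 cases (highest adjusted p = 0.129) and under DESeq2 (adjusted p = 0.0757). MMP13, the other tested collagenase, had 110, 38 and 30 counts in HT7 and 6, 44 and 18 in NT7, which overlapped (log2FC 1.17, SE 0.78, adjusted p = 0.232). MMP8, the collagenase stored in neutrophil granules, was not tested and had 2 counts over the 3 HT7 samples against 19 over NT7. The ratio of those MMP8 levels was 0.0897 with a 95% counting interval of 0.0101 to 0.372, which leaves out the spread between samples.

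The gelatinases MMP2 and MMP9 digest denatured collagen and basement membrane collagen. MMP9, known from neutrophils and macrophages, measured 9.35, 15.8 and 13 CPM in NT3, 41.7, 3.82 and 12.2 CPM in NT5, and 24.1, 20.4 and 14.1 CPM in NT7. In hyperoxia it measured 20.3, 31.8 and 63.7 CPM in HT3, 121 and 22.7 CPM in HT5, and 67.9, 81.2 and 79 CPM in HT7. HT3 and HT7 lay above their normoxia groups without overlap, and HT5 overlapped NT5.

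MMP9 passed the test on day 7 (log2FC 1.96, SE 0.69, adjusted p = 0.0284, edgeR) and not on day 3 (1.60, SE 0.69, adjusted p = 0.28) or day 5 (1.89, SE 0.73, adjusted p = 0.0616). The day 5 value ran from 0.24 (adjusted p = 0.851, without HT5 replicate 1) to 3.14 (adjusted p = 0.006, without NT5 replicate 1), and it passed in 2 of 5 fits with a library left out, the other being without HT5 replicate 2 (adjusted p = 0.0424). The difference between its day 7 and day 3 effects was 0.36 (SE 0.95, adjusted p = 0.819). The day 7 call was lost in 4 of 6 fits with a library left out (highest adjusted p = 0.0937), while the log2FC stayed between 1.78 and 2.14. Summed neutrophil markers, of which 11 of 14 listed had an entry, were 1180 to 3610 CPM in HT7 against 1140 to 1250 CPM in NT7, and 1220 to 1920 CPM in HT3 against 336 to 855 CPM in NT3. Of these markers CXCR2, a chemokine receptor, rose on day 7 and MPO, the granule peroxidase, fell, while none was at 0 in every sample, and their part in the MMP9 values was not tested.

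MMP2, made largely by mesenchymal cells, measured 1530, 1350 and 1610 CPM in NT3, 1420, 1080 and 1260 CPM in NT5, and 1200, 993 and 1410 CPM in NT7. The hyperoxia samples measured 983, 1030 and 1240 CPM in HT3, 1250 and 1540 CPM in HT5, and 1070, 975 and 1010 CPM in HT7. HT3 lay below NT3 without overlap, and the groups of days 5 and 7 overlapped. MMP2 passed the test on no day, with a log2FC of -0.46 (SE 0.14, adjusted p = 0.142, edgeR) on day 3, 0.15 (SE 0.16) on day 5 and -0.24 (SE 0.14) on day 7. As a description, MMP9 counts per MMP2 count were 0.0636 to 0.0833 in HT7 and 0.00997 to 0.0205 in NT7. The ratio was 0.0206 to 0.0514 in HT3 and 0.00612 to 0.0117 in NT3. On day 5 the groups overlapped, at 0.0147 to 0.0964 in HT5 and 0.00352 to 0.0293 in NT5.

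MMP12, the macrophage metalloelastase, varied widely and did not pass the test on any day. It measured 14.5, 106 and 21.1 CPM in HT7 and 49.7, 58.2 and 57.7 CPM in NT7, so that HT7 replicate 2 alone exceeded NT7. Its log2FC on day 7 was -0.23 (SE 0.78, adjusted p = 0.829, edgeR). Summed macrophage and monocyte markers were 2200 to 2780 CPM in HT7 and 1460 to 1770 CPM in NT7. Of 12 tested, CD68, CD163 and MSR1 rose on day 7, and MARCO and LYZ fell.

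MMP11, grouped with the stromelysins and known from stromal cells in tissue remodelling, fell in the same days in which MMP10 rose. It measured 64, 40.4 and 87.2 CPM in NT3, 72.9, 40.1 and 51.7 CPM in NT5, and 46.8, 36.5 and 84.5 CPM in NT7. HT3 held 40.8, 49.3 and 51.6 CPM, within the normoxia range, while HT5 held 15.1 and 8.33 CPM and HT7 held 6.69, 17.8 and 7.07 CPM. All HT5 and HT7 samples lay below all 9 normoxia samples.

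The log2FC of MMP11 was -0.43 (SE 0.40, adjusted p = 0.649, edgeR) on day 3, -2.23 (SE 0.49, adjusted p = 0.00398) on day 5 and -2.42 (SE 0.42, adjusted p = 0.000336) on day 7. MMP11 was a DEG on days 5 and 7. On day 5 it missed the test without HT5 replicate 2. On day 7 it passed the test with each library left out, between -3.01 and -1.99, and it kept the DEG thresholds in 5 of these 6 fits.

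Several members are neighbours in the genome. The genes MMP13, MMP12, MMP1, MMP10 and MMP8 follow each other on chromosome 1, with gaps of 62.4, 45.2, 18.8 and 43.6 kb, within the known cluster of secreted MMPs. Of these neighbours, MMP1 and MMP10 rose on day 7, MMP12 and MMP13 did not pass the test, and MMP8 was not tested. ADAMTS15 and ADAMTS8, 21.3 kb apart on the same chromosome, also differed, in that ADAMTS8 fell and ADAMTS15 did not pass (log2FC 0.22, SE 0.27).

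Membrane-type MMPs act at the cell surface. MMP15 measured 80.3, 107 and 80.6 CPM in HT7 and 223, 228 and 226 CPM in NT7, a fall of 1.34 on the log2 scale (SE 0.20, adjusted p = 9.6e-05, edgeR). MMP16 measured 3.63, 8.53 and 5.02 CPM in HT7 and 19.1, 18.4 and 22.7 CPM in NT7, with a log2FC of -1.81 (SE 0.34, adjusted p = 0.00055). Neither pair of groups overlapped, and both genes also passed on day 5 with a lower level in HT5. With a library left out, the day 5 log2FC of MMP15 ran from -1.60 (without HT5 replicate 1) to -0.52 (without HT5 replicate 2, adjusted p = 0.0637), and that of MMP16 from -2.07 to -0.80 (adjusted p = 0.223) in the same fits. The MMP16 call was also lost without NT5 replicate 2 (adjusted p = 0.056).

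MMP17 (log2FC 0.85, SE 0.34, adjusted p = 0.0523) and MMP24 (log2FC -1.87, SE 0.86, adjusted p = 0.0872) did not pass on day 7 in edgeR's test of all samples. MMP17 measured 3.58, 3.33 and 2.77 CPM in HT7 and 1.85, 1.62 and 1.87 CPM in NT7 without overlap, and it passed in the fit of HT7 and NT7 alone (adjusted p = 0.0392, edgeR) and under DESeq2 (adjusted p = 0.0491). MMP28, a secreted MMP of epithelial tissues, averaged 2.39 ± 0.458 CPM (SD, n = 3) in HT7 against 6.17 ± 0.15 CPM (SD, n = 3) in NT7 and fell on both days 5 and 7, although the day 5 call was lost without HT5 replicate 2 (adjusted p = 0.0639). MMP14 and MMP19 were not analysed here.

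Among the ADAMTS proteases, 11 of 17 tested fell on day 7 and 2 rose, ADAMTS4 and ADAMTS14, beside 23.7% of all genes in each direction. ADAMTS4 (ENSOCUG00000013498, chromosome 13, 31783221 to 31790418), an aggrecanase, cleaves aggrecan and versican. It lay between 1.21 and 3.28 CPM in all 9 normoxia samples and at 1.83, 2.99 and 3.21 CPM in HT3. HT5 held 5.02 and 16.9 CPM, and HT7 held 328, 22.7 and 95.2 CPM, so each HT5 and HT7 sample lay above every normoxia sample.

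The log2FC of ADAMTS4 was 0.25 (SE 0.78, adjusted p = 0.919, edgeR) on day 3, 2.56 (SE 0.81, adjusted p = 0.0266) on day 5 and 6.02 (SE 0.82, adjusted p = 4.79e-05) on day 7. The HT7 samples differed by 14.4-fold among themselves and the NT7 samples by 2.43-fold. With any library left out the day 7 log2FC stayed between 4.68 and 6.53, past the DEG thresholds. On day 5, ADAMTS4 passed the test in 2 of 5 such fits, and it had a log2FC of 1.41 (adjusted p = 0.399) without HT5 replicate 2.

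The other proteoglycan-cleaving members did not follow ADAMTS4. ADAMTS5, the related aggrecanase, measured 7.15, 8.89 and 6.76 CPM in HT7 and 16.6, 25.4 and 17.2 CPM in NT7 without overlap. It had a log2FC of -1.38 (SE 0.26, adjusted p = 0.000596, edgeR). ADAMTS8 measured 9, 15 and 6.45 CPM in HT7 and 40.1, 43.3 and 32.8 CPM in NT7, and it fell on day 5 (log2FC -1.89; adjusted p = 0.0535 without HT5 replicate 2) and day 7 (-1.94). ADAMTS20 passed on day 7 (log2FC -1.87, SE 0.42) and not on day 5 (-0.83, SE 0.45), except without NT5 replicate 1 (-1.19, adjusted p = 0.0291, edgeR).

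ADAMTS1, ADAMTS9 and ADAMTS15 passed the test on no day with all samples in the fit. ADAMTS1, which lies 72.3 kb from ADAMTS5 on chromosome 14, averaged 234 ± 132 CPM (SD, n = 3) in HT7 against 314 ± 101 CPM (SD, n = 3) in NT7, with HT7 samples at 386, 169 and 147 CPM. Its day 7 log2FC was -0.43 (SE 0.35), and without HT7 replicate 1 it was -0.99 (adjusted p = 0.0207, edgeR). ADAMTS9 had 96.4 ± 34.6 and 99.1 ± 12.1 CPM (SD, n = 3 each), with a log2FC of -0.04 (SE 0.22) on day 7.

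Procollagen N-proteinases trim the amino end of fibrillar procollagens. ADAMTS2 measured 26.8, 26.1 and 29.4 CPM in HT7 and 53.4, 71.9 and 53.9 CPM in NT7, and it fell by 1.12 on the log2 scale (SE 0.14, adjusted p = 1.87e-05, edgeR). ADAMTS3 also fell, by 1.01 (SE 0.28, adjusted p = 0.00852). ADAMTS14, the third enzyme of this kind, instead measured 51, 62.7 and 58 CPM in HT7 and 40.9, 37.3 and 34.6 CPM in NT7, and it rose with a log2FC of 0.61 (SE 0.16, adjusted p = 0.00527). ADAMTS2 also fell on day 5, in each of the 5 fits with a library left out. ADAMTS3 passed on day 5 as well, with a lower level in HT5, but in 2 of 5 such fits. Its log2FC ran from -1.38 (without HT5 replicate 1) to -0.59 (without HT5 replicate 2, adjusted p = 0.344), and the call was lost without NT5 replicate 2 or NT5 replicate 3 too. ADAMTS14 did not pass on day 5, except without NT5 replicate 1 (log2FC 0.62, adjusted p = 0.0108).

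ADAMTS7 and ADAMTS12 cleave cartilage oligomeric matrix protein. ADAMTS7 measured 221, 219 and 224 CPM in NT7 and 49.8, 68.3 and 51.7 CPM in HT7, and HT5 held 89.8 and 52.1 CPM against 231 to 268 CPM in NT5. Its log2FC was -1.84 (SE 0.21, adjusted p = 7.19e-05, edgeR) on day 5 and -1.97 (SE 0.18, adjusted p = 2.63e-06) on day 7, the smallest adjusted p among the members on both days. ADAMTS12 fell by 0.80 (SE 0.19, adjusted p = 0.0035) on day 7.

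ADAMTS6, ADAMTS10 and ADAMTS17 are linked to fibrillin microfibrils, and all 3 fell on days 5 and 7. With a library left out, the day 5 call of ADAMTS17 held in 5 of 5 fits, that of ADAMTS6 in 4 (log2FC -0.54, adjusted p = 0.0795, without HT5 replicate 2) and that of ADAMTS10 in 3. The day 5 log2FC of ADAMTS10 ran from -0.88 (without HT5 replicate 1) to -0.33 (without HT5 replicate 2, adjusted p = 0.286), and its call was also lost without NT5 replicate 1. ADAMTS17 measured 213, 199 and 225 CPM in NT3, 194, 202 and 184 CPM in NT5, and 122, 170 and 144 CPM in NT7. HT3 held 131, 90 and 120 CPM, HT5 held 83.5 and 44 CPM, and HT7 held 20.1, 36.4 and 19.4 CPM. The groups did not overlap on any day.

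The log2FC of ADAMTS17 was -0.90 (SE 0.25, adjusted p = 0.0937, edgeR) on day 3, -1.60 (SE 0.29, adjusted p = 0.0012) on day 5 and -2.52 (SE 0.26, adjusted p = 5.71e-06) on day 7, a DEG on day 7. The day 3 value passed under DESeq2 (adjusted p = 0.0149) and in the fit of HT3 and NT3 alone (adjusted p = 0.0306). It passed in 0 of 6 fits with a library left out (adjusted p from 0.147 to 0.271, edgeR). The unit counted as ADAMTS10 was shared with MYO1F, whose reads cannot be separated from it, and its log2FC was -0.69 (SE 0.15) on day 7.

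ADAMTS18 had 0, 3 and 0 counts in HT7 and 3, 4 and 15 in NT7. The ratio of its levels was 0.116 (95% counting interval 0.0223 to 0.387), and the call on day 7 (adjusted p = 0.0285, edgeR) was lost in 3 of 6 fits with a library left out. ADAMTS19 did not pass (log2FC -0.79, SE 0.43, adjusted p = 0.151). ADAMTS13, the von Willebrand factor-cleaving protease, was not tested and had at most 0.284 ± 0.186 CPM (SD, n = 3) as a group mean, in HT3.

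**Figure D3:**
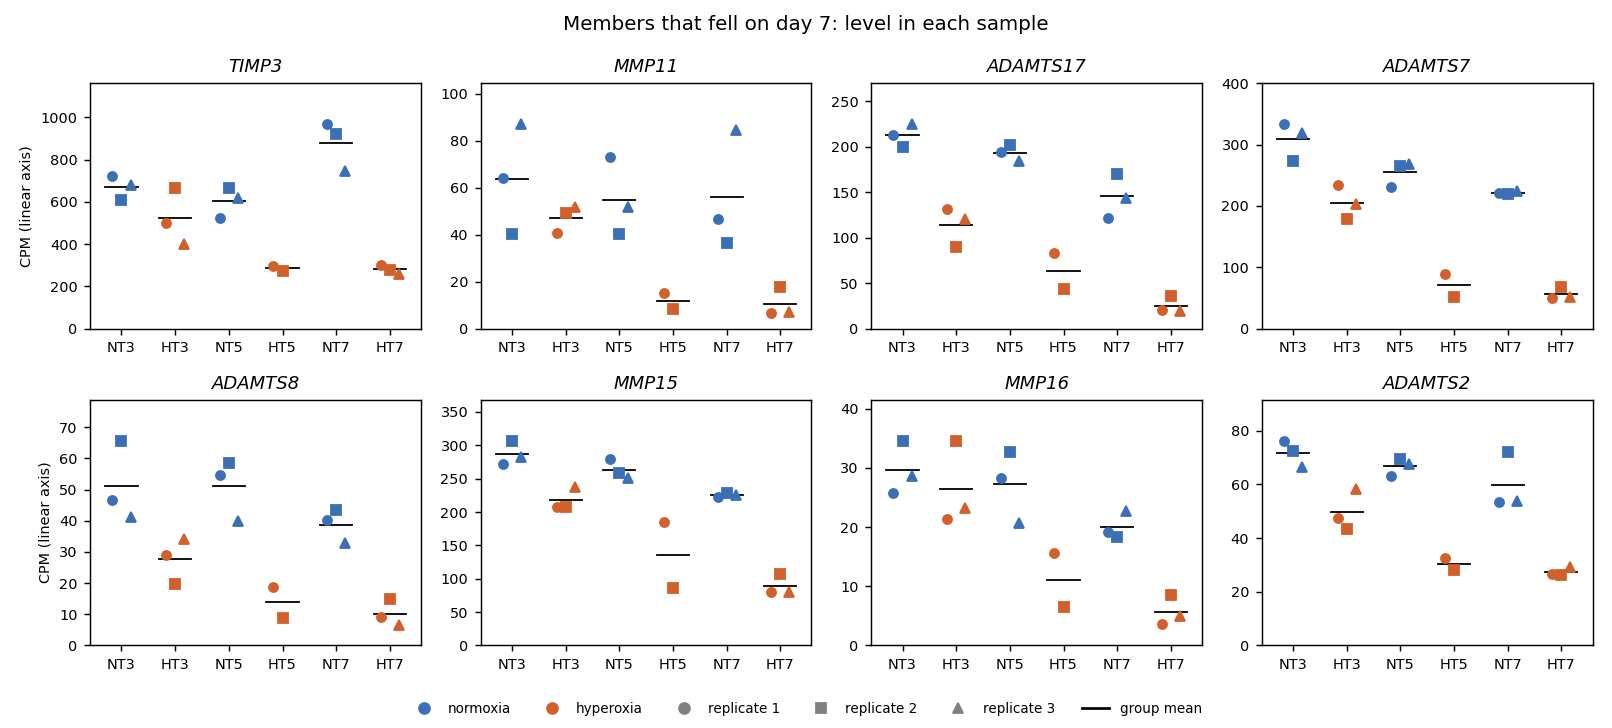
CPM in each sample (points, shaped by replicate) and group means (lines) of 8 members that fell on day 7, on linear axes from 0. ADAMTS17 stepped down from HT3 to HT7 (131, 90 and 120 CPM to 20.1, 36.4 and 19.4 CPM), and MMP11 in HT3 still lay within the range of normoxia.

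Of the ADAMTS-like proteins, which bind matrix and microfibrils, ADAMTSL3 fell and ADAMTSL1 and ADAMTSL2 rose on day 7. ADAMTSL3 measured 7.5, 8.59 and 11 CPM in HT7 and 23.3, 19.2 and 17.1 CPM in NT7 (log2FC -1.13, SE 0.25, adjusted p = 0.00165, edgeR). ADAMTSL2 measured 1.44, 2.42 and 2.05 CPM in HT7 and 1.37, 0.54 and 0.748 CPM in NT7 (log2FC 1.15, SE 0.42, adjusted p = 0.0333), and it also rose on day 5 (1.55, SE 0.44, adjusted p = 0.0158). The day 5 call was lost without HT5 replicate 2 (log2FC 0.92, adjusted p = 0.301) and without NT5 replicate 2 (1.47, adjusted p = 0.051). ADAMTSL1 measured 6.63, 11 and 11 CPM in HT7 and 4.37, 5.73 and 6.42 CPM in NT7 (log2FC 0.79, SE 0.30, adjusted p = 0.0432). HT7 lay within the range of the normoxia samples of all days, 4.37 to 16.7 CPM, and the mean in normoxia was 13.2 ± 4.59 CPM (SD, n = 3) in NT3 and 5.51 ± 1.04 CPM (SD, n = 3) in NT7. With a library left out the day 7 calls of ADAMTSL1 and ADAMTSL2 held in 1 and 2 of 6 fits, and ADAMTSL4 passed on no day.

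The inhibitors moved apart. TIMP1 (ENSOCUG00000010718, chromosome X, 32653959 to 32658564) encodes a soluble inhibitor that also acts as a growth factor. It measured 75.7, 64.4 and 94.4 CPM in NT3, 122, 60.3 and 74.6 CPM in NT5, and 142, 68.7 and 98.1 CPM in NT7. In hyperoxia it reached 105, 109 and 158 CPM (HT3), 195 and 178 CPM (HT5), and 1430, 264 and 705 CPM (HT7). Hyperoxia lay above normoxia without overlap on each day, and the HT7 samples differed by 5.42-fold.

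The log2FC of TIMP1 was 0.66 (SE 0.44, adjusted p = 0.501, edgeR) on day 3, 1.12 (SE 0.49, adjusted p = 0.0916) on day 5 and 2.96 (SE 0.47, adjusted p = 0.000166) on day 7. The day 5 value passed in the fit of HT5 and NT5 alone (adjusted p = 0.0401). With a library left out it passed in 0 of 5 fits, with a log2FC between 0.93 and 1.46. TIMP1 was a DEG on day 7, with each library left out between 2.24 and 3.38.

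TIMP3 (ENSOCUG00000008310, chromosome 4, 88310434 to 88361387), the matrix-bound inhibitor, measured 722, 607 and 679 CPM in NT3, 524, 665 and 619 CPM in NT5, and 970, 923 and 746 CPM in NT7. It measured 502, 667 and 400 CPM in HT3, 298 and 272 CPM in HT5, and 303, 278 and 261 CPM in HT7. HT5 and HT7 lay below all normoxia samples, and HT3 overlapped NT3.

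TIMP3 fell with a log2FC of -1.08 (SE 0.19, adjusted p = 0.000924, edgeR) on day 5 and -1.65 (SE 0.17, adjusted p = 4.95e-06) on day 7, after -0.36 (SE 0.16, adjusted p = 0.309) on day 3. As a description, TIMP1 counts per TIMP3 count were 0.0744 to 0.233 over the normoxia groups. The same ratio was 0.163 to 0.396 for HT3. It reached 0.652 and 0.654 for HT5 and ranged from 0.953 to 4.73 for HT7. The size of this ratio depends on the lengths of both transcripts, so that only its change between groups can be read.

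TIMP4 was low, at 0.205, 0.877 and 0.935 CPM in NT7 and 1.9, 0.544 and 1.18 CPM in HT7. On day 5 it measured 1.21, 0.891 and 0.775 CPM in NT5 and 0.481 and 0.0541 CPM in HT5, and on day 3 it measured 0.728, 0.302 and 0.626 CPM in NT3 and 0.828, 1.33 and 0.467 CPM in HT3. It passed the test on no day, with a log2FC of 0.67, -1.89 and 0.84 on days 3, 5 and 7 and adjusted p values of 0.676, 0.0969 and 0.301 (edgeR). The day 5 log2FC of TIMP4 was nearer to 0 without HT5 replicate 2 (adjusted p = 0.521, edgeR) and was -3.97 (adjusted p = 0.0289, edgeR) without HT5 replicate 1, a fit that rests on the 1 count of the remaining HT5 sample. TIMP2 was not analysed here.

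**Figure D4:**
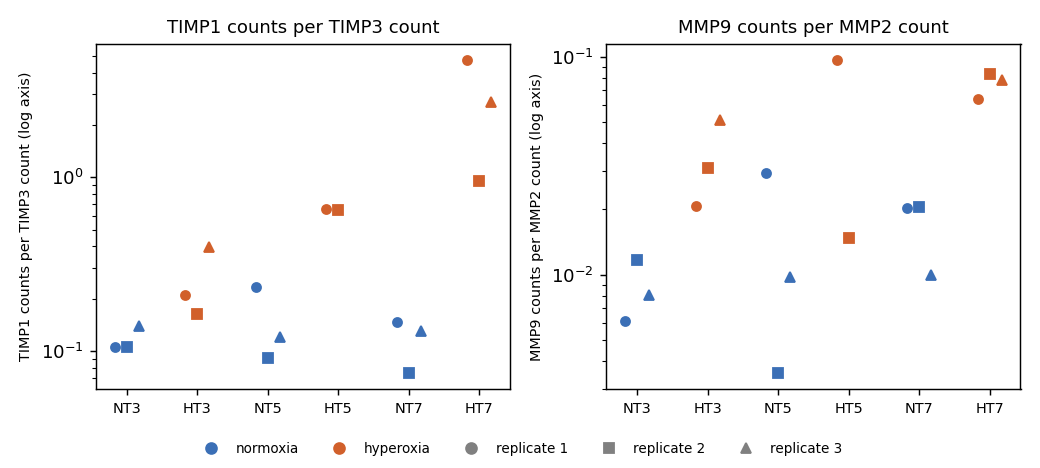
TIMP1 counts per TIMP3 count and MMP9 counts per MMP2 count in each sample (points, shaped by replicate) for the 6 groups, on log axes. The first ratio lies at 0.953 to 4.73 in HT7 and at 0.0744 to 0.147 in NT7, and the second lies at 0.0636 to 0.0833 in HT7 and at 0.00997 to 0.0205 in NT7.

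The DEG thresholds were passed by 0 members on day 3, against 0.0533% of all genes higher and 0% lower, and by 1 member in each direction on day 5 (MMP10 higher and MMP11 lower), against 0.822% and 0.761% of all genes tested. With a library left out, MMP10 kept the day 5 thresholds in 1 of 5 fits (without HT5 replicate 1) and MMP11 in 3 of 5 (not without HT5 replicate 2 or NT5 replicate 1), and the fit of HT5 and NT5 alone gave 0 members, beside 0.0867% of all genes. On day 7 they were passed by 3 members that were higher (ADAMTS4, MMP10 and TIMP1) and 2 that were lower (ADAMTS17 and MMP11), against 1.75% and 2.84%. With a library left out, MMP11 kept the day 7 thresholds in 5 of 6 fits, and ADAMTS4, MMP10, TIMP1 and ADAMTS17 kept them in 6 of 6. All 3 HT7 samples lay above all 9 normoxia samples for 6 of the 36 tested members and below them for 17 (16.7% and 47.2%), against 21.7% and 21% of all genes tested.

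Whether the effect of hyperoxia differed between days 7 and 3 was tested as a contrast of its own. The difference was positive for 3 members and negative for 9 at an adjusted p under 0.05, against 9.52% and 11% of all genes tested. By the DEG thresholds it was positive for 1 member and negative for 0, against 0.54% and 1.02%. Without HT3 replicate 2, 8 members passed in place of 12 and 0 reached the DEG thresholds, and the share of all genes that passed fell from 20.5% to 13.8%. The positive members were ADAMTS4 (5.77, SE 1.10, adjusted p = 0.00362, edgeR), TIMP1 (2.29, SE 0.63, adjusted p = 0.021) and ADAMTS14 (0.69, SE 0.22, adjusted p = 0.0399). For MMP10 edgeR gave no usable estimate of this difference, with all 6 normoxia libraries of both days at 0 and HT3 at the floor. DESeq2 called it positive (adjusted p = 0.0244), and its fitted size rests on the same groups at 0. Among the negative members were ADAMTS17 (-1.63, SE 0.35, adjusted p = 0.00641), TIMP3 (-1.29, SE 0.23, adjusted p = 0.00253) and ADAMTS7 (-1.38, SE 0.25, adjusted p = 0.00271).

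Without hyperoxia, 0 members passed the test between NT7 and NT3 in edgeR, where 0% of all genes tested did. Of the members, 8 had an unadjusted p under 0.05 (2 higher and 6 lower in NT7), against 6.27% of all genes. DESeq2 called 1 member, ADAMTSL1 (log2FC -1.27, adjusted p = 0.026), and 0.282% of all genes.

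The members that fell on day 7 fell together with markers of endothelial and alveolar type 1 cells. Summed endothelial markers were 1080 to 1480 CPM in HT7 and 2770 to 3330 CPM in NT7, and 8 of 10 tested fell (median log2FC -2.11), against 23.7% of all genes. Summed alveolar type 1 markers were 2120 to 2860 CPM in HT7 and 7720 to 8770 CPM in NT7, and 6 of 9 tested fell (median -2.26). Fibroblast markers summed to 7250 to 8310 CPM in HT7 and 7780 to 10100 CPM in NT7, with 1 of 10 tested higher and 4 lower. Smooth muscle and pericyte markers summed to 1040 to 1250 and 1330 to 1820 CPM, with 2 of 10 higher and 4 lower. On day 5, 7 of 10 endothelial markers fell and VWF rose. Of 9 alveolar type 1 markers, 6 fell and 0 rose, where 15.4% of all genes fell and 15.9% rose. Fibroblast markers had 0 of 10 higher and 4 lower on day 5, with sums of 5700 to 7250 CPM in HT5 and 8170 to 9090 CPM in NT5. Of 10 smooth muscle and pericyte markers, 2 were higher and 4 lower on that day. No marker with an entry was at 0 in every sample, and the part of these cell types in the members' values was not tested.

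HT7 replicate 2 lay nearest to normoxia in most genes called on day 7, among them most members that fell but not most that rose. It was the highest of the 3 HT7 samples in 13 of the 17 members that fell (76.5%, against 65.3% of all genes that fell) and the lowest in 3 of the 8 that rose (37.5%, against 73.2%). Without this library 22 members passed the test on day 7 (50.4% of all genes, 47.4% with it), and 9 passed the DEG thresholds in place of 5, where the share of all genes rose from 4.59% to 6.23%.

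Other genes of matrix proteolysis were read from lists of regulators, further proteases and substrates. Of 15 tested inhibitors, activators and receptors of MMPs, 2 rose and 3 fell on day 7, with a median log2FC of 0.04, where 23.7% of all genes tested rose and 23.7% fell. THBS1, which encodes thrombospondin 1, rose on day 5 (log2FC 2.54, SE 0.35) and day 7 (3.34, SE 0.34, adjusted p = 5.71e-06, edgeR), and PLAUR, the urokinase receptor, rose on day 7 (2.01, SE 0.38). RECK, a membrane-anchored MMP inhibitor, fell on day 7 (-0.69, SE 0.15), as did PCSK5, a proprotein convertase (-1.14, SE 0.13), and SPOCK1 (-2.18, SE 0.63). THBS2 passed on day 3 (-1.15, SE 0.26, adjusted p = 0.0482) and in 0 of 6 fits with a library left out (adjusted p up to 0.195).

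Of 19 tested ADAM and other matrix proteases, 7 rose and 4 fell on day 7, with a median log2FC of -0.10, against the same 23.7% of all genes in each direction. ADAM9, a membrane sheddase, rose on each day, with a log2FC of 0.73, 1.30 and 1.53 and an adjusted p of 0.0471 on day 3 (edgeR). The day 3 call was lost in all 6 fits with a library left out (adjusted p up to 0.19). PAPPA, a protease of insulin-like growth factor binding proteins, rose by a log2FC of 2.68 (SE 0.24) on day 7, and the cathepsins CTSK (1.35, SE 0.23) and CTSV (1.52, SE 0.20) rose as well. The 4 that fell were ADAM12, ADAM19, ADAM33 and MEP1B.

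Of 17 tested substrates, 3 rose and 6 fell on day 7, with a median log2FC of -0.34, again against 23.7% of all genes in each direction. ACAN, which encodes aggrecan, rose (1.70, SE 0.48, adjusted p = 0.00973, edgeR), as did LUM (1.25, SE 0.30) and TNC (0.96, SE 0.30). FMOD, encoding fibromodulin, fell by 2.17 (SE 0.35, adjusted p = 0.000173), and BGN, FBN2, POSTN, HAPLN1 and CSPG4 also fell. With a library left out, the calls of ACAN (without HT7 replicate 1, adjusted p = 0.072), TNC (without HT7 replicate 3 or NT7 replicate 1, log2FC down to 0.47) and FBN2 (without HT7 replicate 1 or NT7 replicate 2, adjusted p up to 0.0606) were lost. VWF, the substrate of ADAMTS13, rose on day 5 (1.14, SE 0.28; adjusted p = 0.0765 without HT5 replicate 2) and was not among the genes that passed on day 7.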

How the data were processed

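Right lung RNA was sequenced from poly(A) libraries made with a stranded kit. The authors deposited raw counts per gene for 17 samples, and the submitters' processing notes name STAR 2.7.10a, FastQC and build OryCun2.0. The counting program and its strand setting are not given in the sources used here. Gene names were the human names in that table, and coordinates are as listed there. Genes on a shared locus carry the same counts, so that library totals counted each of 13313 loci once. In all, 44 entries had no gene name.

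Samples were grouped by their labels. Counts were tested with edgeR 4.0.16 (R 4.3.3) by glmQLFit and glmQLFTest with TMM scaling (factors 0.958 to 1.05), filterByExpr, 6 group means and a prior count of 0.125. The filter left out 685 genes. Benjamini-Hochberg adjustment covered all 13142 genes tested. The scripts were tested on simulated data. Intervals at 95% and floors of 3 counts cover counting error only. The chi-square per degree of freedom of each pair of samples within a group was 16 to 88.2, so no library was repeated within a group. Pairs across groups were not compared.

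Values per sample are given for members that were DEGs on a day, TIMPs, MMP2, MMP9, MMP11, and members with 3 or fewer counts in every normoxia sample and over 10 in every hyperoxia sample of a day; others were added after their values were seen. Members and lists were chosen with earlier results of these data known. Marker lists covered neutrophils, macrophages and monocytes, fibroblasts, smooth muscle and pericytes, endothelial cells, alveolar type 1 and type 2 cells and skeletal muscle. Alternatives were DESeq2 1.42.0, RLE size factors, no filter, a prior count of 2, a fit of the compared groups only, a replicate block, 1 entry per locus and each library left out. Deviations from the group means of same-numbered samples correlated at 0.166, 0.131 and 0.199 on day 3 and at 0.18, 0.144 and 0.27 between NT7 and NT3. Samples with different numbers were not compared in this way, so these values cannot show whether the replicate numbers pair samples. The labels do not say so, and the block stands as an alternative only.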

Additional observations from a re-analysis of the deposited data

Results flagged for a closer look

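For 12 members the effect of hyperoxia differed between day 7 and day 3 in a test of the difference itself (adjusted p under 0.05, edgeR's quasi-likelihood test over all genes), of 36 tested, where 20.5% of all genes tested passed. The difference of log2FC was positive for ADAMTS4 (5.77), TIMP1 (2.29) and ADAMTS14 (0.69). It was negative for MMP11 (-1.98), MMP16 (-1.64), ADAMTS17 (-1.63), ADAMTS5 (-1.45), ADAMTS7 (-1.38), ADAMTSL3 (-1.33), TIMP3 (-1.29), MMP15 (-0.93) and ADAMTS2 (-0.59). The differences of ADAMTS4, ADAMTS5, ADAMTS7, ADAMTS17, ADAMTSL3 and TIMP3 passed in all 12 fits that left out a library. Those of TIMP1, MMP16, MMP11 and MMP15 passed in 8, 7, 6 and 5 of 12, and those of ADAMTS2 and ADAMTS14 in 3 of 12. For TIMP1 the difference ran from 1.57 to 2.71.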

How the results depend on the processing

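Of 53 pairs of a member and a comparison that passed the test, 30 passed under every alternative, 0 changed sign in 744 refits, and 648 refits passed. On day 7, 20 of 25 members passed under every alternative, and ADAMTS18, ADAMTSL1, ADAMTSL2, MMP1 and MMP9 did not. On day 5, ADAMTS3, ADAMTS6, ADAMTS10, ADAMTSL2, MMP15 and MMP16 passed in 7, 10, 9, 8, 10 and 9 of 12 alternatives. Each of these members also lost its call in an alternative that left out no HT5 or NT5 library. DESeq2 called 3 members on day 3 (3.54% of all genes) and 1 between NT7 and NT3 (0.282%). It called 2 as DEGs for the difference of effects (2.21% of all genes), against 1 in the main analysis (1.56%). The fit of the compared groups alone called 1 on day 3 (ADAMTS17, beside 2.25% of all genes) and 0 DEGs on day 5 (beside 0.0867% of all genes, 1.58% in the main analysis). In that fit 19% of all genes passed the test on day 5, against 31.3% in the main analysis. The replicate block changed no count on day 3 or between NT7 and NT3 (0 in each). On days 5 and 7, same-numbered samples correlated at 0.264 and 0.141, and at 0.174, 0.109 and 0.0695. There the block gave 18 and 24 members (25.4% and 47.3% of all genes), and it gave 2 DEGs for the difference (1.2% of all genes).

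With a library left out, the day 3 count was 0 to 1 (1 without HT3 replicate 3), the day 5 count 5 to 20 (5 without HT5 replicate 2) and the day 7 count 20 to 24. DEGs numbered 0 to 6 on day 5 (6 without HT5 replicate 1, 0 without HT5 replicate 2, 1 without NT5 replicate 2). On day 7 they numbered 5 to 9, with 9 in the fit that lacked HT7 replicate 2. The difference of effects gave 7 to 14 members (7 without HT7 replicate 3 or NT3 replicate 1) and 0 to 4 DEGs (4 without HT7 replicate 2, 0 without HT3 replicate 1, HT3 replicate 2, NT3 replicate 3, NT7 replicate 2 or NT7 replicate 3). NT7 against NT3 gave 0 throughout. In these fits the share of all genes called ran from 0.236% to 0.883% on day 3, 8.65% to 32% on day 5, 39.5% to 50.4% on day 7 and 13% to 29% for the difference, and the share passing the DEG thresholds from 0.343% to 2.81% on day 5, 3.59% to 6.23% on day 7 and 0.77% to 3.12% for the difference. The log2FC of MMP2 on day 5 was 0.15 and ranged from -0.02 (without HT5 replicate 2) to 0.29. Under the block, MMP9 and TIMP1 passed on day 5 (adjusted p 0.00735 and 0.0274, edgeR). ADAMTS19 passed under it on days 5 and 7 (log2FC -1.09 and -0.88, adjusted p 0.045 and 0.0255), as did ADAMTS12 on day 5 (-0.65, adjusted p 0.0298). Other members lost their call under the block on days 5 and 7. In addition, MMP9 had a log2FC of 3.14 (adjusted p 0.006) without NT5 replicate 1 and 0.24 (adjusted p 0.851) without HT5 replicate 1. The cause was not tested. When HT5 is reduced to 1 sample, that sample is assumed to vary like the other groups. Depth limits MMP8, MMP10, MMP13, MMP21, MMP24, ADAMTS13 and ADAMTS18, which had groups at or under 3 counts per library.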
